A study of Mus musculus with 3 samples.

Results

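A set of 57 nuclei of the adult mouse basolateral amygdala (BLA), selected as glutamatergic by their transcripts, carried *Grik1* and *Sema5a* with little or no *Otof*. Of these nuclei, 24 were in library 2 and 33 in library 3. They were chosen by the raw counts of unique molecular identifiers (UMIs, which count captured transcripts) from 1306 nuclei of these libraries with a glutamatergic profile, the glutamatergic base, out of 9199 deposited barcodes in 3 libraries. A base nucleus had more than 200 detected genes and less than 20% mitochondrial UMIs. It held at least 1 UMI of the vesicular glutamate transporters *Slc17a7* or *Slc17a6*, none of the GABA-synthesis genes *Gad1* and *Gad2*, and less than 0.1% of its UMIs from the astrocytic glutamate transporters *Slc1a2* and *Slc1a3*. The *Grik1*/*Sema5a* nuclei were those base nuclei with at least 2 UMIs of *Grik1*, at least 1 of *Sema5a* and fewer than 2 each of *Otof*, *Rspo2* and *Rorb*. The transcript counts themselves therefore defined the set, and the levels of these genes are given below as a description.

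The data came from single-nucleus RNA sequencing of microdissected BLA from male C57BL/6NRj mice at postnatal day 56, with no genetic change or treatment given in the labels. The 3 libraries were prepared from nuclear RNA with droplet capture that tags the 3′ end of transcripts, and the labels describe 4 brains for the dataset without tying brains to libraries. Libraries 1, 2 and 3 held 819, 3792 and 4588 barcodes, with 8078394, 24354374 and 33049068 UMIs and a median of 7725, 3315.5 and 4115.5 UMIs per barcode. Library 1 had 58 base nuclei and only 1 *Grik1*/*Sema5a* nucleus, so the comparisons rest on libraries 2 and 3, treated as 2 replicates. These libraries shared 7 barcodes, 1 of which belonged to a *Grik1*/*Sema5a* nucleus of library 3.

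The *Grik1*/*Sema5a* nuclei made up 2.93% of the glutamatergic base in library 2 (exact Clopper-Pearson 95% interval 1.89–4.33, 24 of 819 nuclei) and 6.78% in library 3 (4.71–9.38, 33 of 487 nuclei), a mean of 4.85% ± 2.72 (SD, n = 2). Library 1 gave 1.72% (0.0436–9.24). The intervals of libraries 2 and 3 did not overlap. All intervals cover counting error only. The shares depended on the limits of the rule. With at least 3 *Grik1* and 2 *Sema5a* UMIs they were 2.08% and 3.70% in libraries 2 and 3. With *Otof*, *Rspo2* and *Rorb* at 0 they were 1.22% and 3.70%, and under a stricter base 0.48% and 1.96%. The stricter base required at least 2 *Slc17a7* UMIs. It also required less than 0.2% of UMIs from oligodendrocyte, precursor, microglial, vascular and ependymal markers, with the precursor marker *Lhfpl3* counted.

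*Grik1* encodes a kainate receptor subunit of the low-affinity class, and *Grik4* a high-affinity subunit that forms functional receptors only together with a low-affinity partner. Kainate receptors are glutamate-gated channels that act both postsynaptically and at nerve terminals, where they adjust transmitter release. *Sema5a* encodes a membrane-bound semaphorin that steers growing axons and limits synapse formation, and *Otof* encodes otoferlin, a calcium sensor of vesicle fusion. Most principal neurons of the BLA load vesicles through the transporter encoded by *Slc17a7*, whereas the *Slc17a6* transporter predominates in thalamus, hypothalamus and parts of the medial amygdala.

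*Grik1* stood at 689 CPM in library 2 and 957 CPM in library 3, where CPM is the number of UMIs of a gene, summed over a group of nuclei, per 1000000 UMIs of that group. In single nuclei it ranged from 85.2 to 4362 CPM in library 2 and from 148 to 5211 in library 3, with medians of 629 in each. *Sema5a* was at 327 and 317 CPM, and *Otof*, of which the rule allowed 1 UMI, at 34.2 and 42.0 CPM. Exactly 1 *Otof* UMI was present in 12 and 13 of the nuclei, and none in the others. Otoferlin transcripts were thus not absent from the set, and "without *Otof*" means below 2 UMIs. *Rspo2* stood at 8.54 CPM in library 2 with no UMI in library 3, and *Rorb* at 5.70 and 9.70 CPM.

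Many of the nuclei lay close to the limits of the rule. The *Grik1* count was exactly 2 in 3 nuclei of library 2 and 7 of library 3, and the *Sema5a* count exactly 1 in 5 and 15. Just outside, 17 and 12 nuclei met every other condition with a single *Grik1* UMI, and 26 and 40 did so without a *Sema5a* UMI. Only 3 and 4 nuclei were kept out by an *Otof* count of exactly 2. *Adarb2*, described below, was at 848 and 388 CPM in those few nuclei and at 400 and 252 CPM in nuclei with more *Otof*. It was at 1583 and 1330 CPM in the nuclei with a single *Grik1* UMI and at 765 and 960 CPM in those without *Sema5a*.

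Each *Grik1*/*Sema5a* nucleus was set against 2 other base nuclei of the same library with the nearest UMI total, which gave 48 depth-matched nuclei in library 2 and 66 in library 3. Median UMIs were 13356.5 and 6993 in the *Grik1*/*Sema5a* nuclei and 13365.5 and 6994.5 in the matched nuclei. *Malat1*, a nuclear RNA whose share tracks how much of a profile is nuclear, took a median of 2.02% and 1.88% of UMIs, below the 2.99% and 2.60% of the matched nuclei. Its part in the differences below was addressed only by matching on *Malat1* as well, given with the alternatives.

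In many of the nuclei *Slc17a6* was detected and *Slc17a7* was not. *Slc17a7* was undetected in 13 of 24 cases (54.2%) for library 2 and 14 of 33 (42.4%) for library 3, and all of these nuclei held *Slc17a6* by the rule. Among depth-matched nuclei the shares without *Slc17a7* were 8.33% and 15.2%. *Slc17a7* stood at 45.6 and 77.6 CPM against 152 and 155 in matched nuclei, and *Slc17a6* at 68.3 and 100.2 CPM against 18.5 and 32.6. Both transporters were detected in 2 and 7 nuclei, and *Slc17a7* alone in 9 and 12. When each nucleus was thinned to 4000 UMIs, leaving out 6 shallower *Grik1*/*Sema5a* nuclei (23 and 28 kept), *Slc17a7* was found in 17.4% against 41.3% of matched nuclei in library 2, but in 39.3% against 41.1% in library 3. The shortfall of nuclei with *Slc17a7* was thus seen against depth-matched nuclei in both libraries. After thinning to 4000 UMIs it remained in library 2 and was not detectable in library 3. Oligodendrocyte nuclei, which should lack the gene, had a *Slc17a7* UMI in 6.49% and 3.14% of cases at median depths of 1922.5 and 2142 UMIs.

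**Figure D1:**
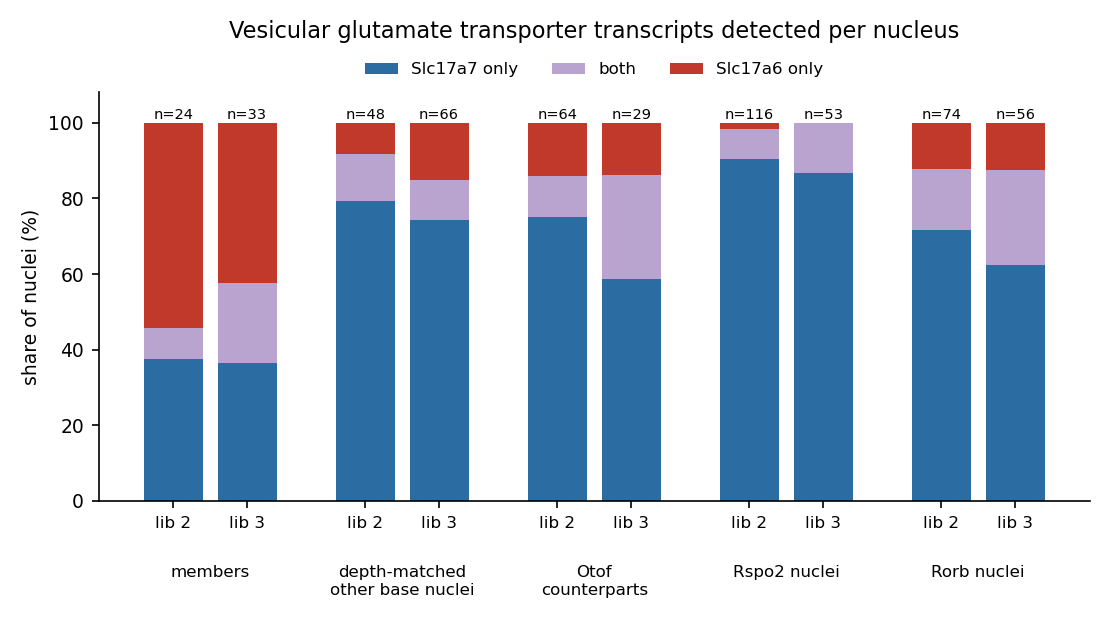
Share of nuclei (y axis, percent) in which *Slc17a7* alone, both transporters or *Slc17a6* alone were detected, for the *Grik1*/*Sema5a* nuclei, their depth-matched base nuclei, and the whole groups of *Otof*, *Rspo2* and *Rorb* nuclei, with 1 bar per library and the number of nuclei given for each. *Slc17a6* alone was found in 54.2% and 42.4% of the *Grik1*/*Sema5a* nuclei and in 8.33% and 15.2% of matched nuclei.

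The 2 further genes that name this type were present in a part of the nuclei only. *Grik4* (chr9:42518135–42944493, GRCm38/mm10) had a UMI in 16 of 24 nuclei of library 2, 66.7% (Clopper-Pearson 44.7–84.4), and in 16 of 33 of library 3, 48.5% (30.8–66.5). The matched nuclei had 20.8% and 30.3%, oligodendrocyte nuclei 9.09% and 15.2%, and GABAergic nuclei 55.8% and 56.4%. *Unc13c* (chr9:73479422–73968966), which encodes a Munc13 protein that primes vesicles for release, had a UMI in 54.2% (32.8–74.4) and 51.5% (33.5–69.2) of the nuclei, against 27.1% and 24.2% of matched, 3.90% and 3.14% of oligodendrocyte, and 43.5% and 52.0% of GABAergic nuclei. At 4000 UMIs the *Grik4* shares were 60.9% and 46.4% against 13.0% and 17.9%, and those of *Unc13c* 43.5% and 53.6% against 15.2% and 17.9%. Both genes were proposed as markers from these same data, so their levels describe the set and are no separate evidence for it.

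The set was not uniform. Split after seeing the data by whether *Slc17a7* was detected, the 27 nuclei without it had *Grik4* in 12 of 13 and 9 of 14 nuclei, against 4 of 11 and 7 of 19 with it. *Unc13c* was present in 10 of 13 and 9 of 14 nuclei without *Slc17a7* and in 3 of 11 and 8 of 19 with it. *Adarb2*, an RNA-binding relative of the adenosine deaminases that edit RNA, was at 2838 and 4483 CPM without *Slc17a7* and at 781 and 1023 CPM with it, or 462 and 670 without the most loaded nucleus. *Lypd1*, a membrane-anchored prototoxin that modulates nicotinic receptors, showed the opposite order, at 27.1 and 29.1 CPM without *Slc17a7* and 264 and 223 CPM with it. Median depth was 11417 and 6208 UMIs without *Slc17a7* and 13884 and 7204 with it.

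Other genes, chosen here after their values were seen, followed the same split. *Mef2c*, an activity-regulated transcription factor of forebrain neurons, was at 130 and 136 CPM without *Slc17a7* and at 763 and 567 CPM with it, of which 1 deep nucleus held 61.4% in library 2. Without the most loaded nucleus of each library the latter levels were 373 and 431 CPM. *Camk2a*, a kinase of excitatory synapses, was at 406 and 320 against 667 and 650 CPM. *Kcnq5*, a potassium channel of the M-current, was at 233 and 378 against 1351 and 897 CPM. In the other direction, *Ntng1*, the axonal adhesion protein netrin-G1, was at 1202 and 1135 CPM without *Slc17a7* and 384 and 494 with it. *Robo1*, a Slit receptor, was at 2188 and 1659 against 607 and 931 CPM. The RNA-binding splicing regulator *Nova1* was at 466 and 398 against 102 and 155 CPM. In the nuclei with *Slc17a7* of library 2, 1 nucleus held 53.1% of the *Ntng1* and 70.6% of the *Nova1* UMIs, and without it these levels were 207 and 34.5 CPM. These are descriptions of a split made on the same counts and carry no test.

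**Figure D2:**
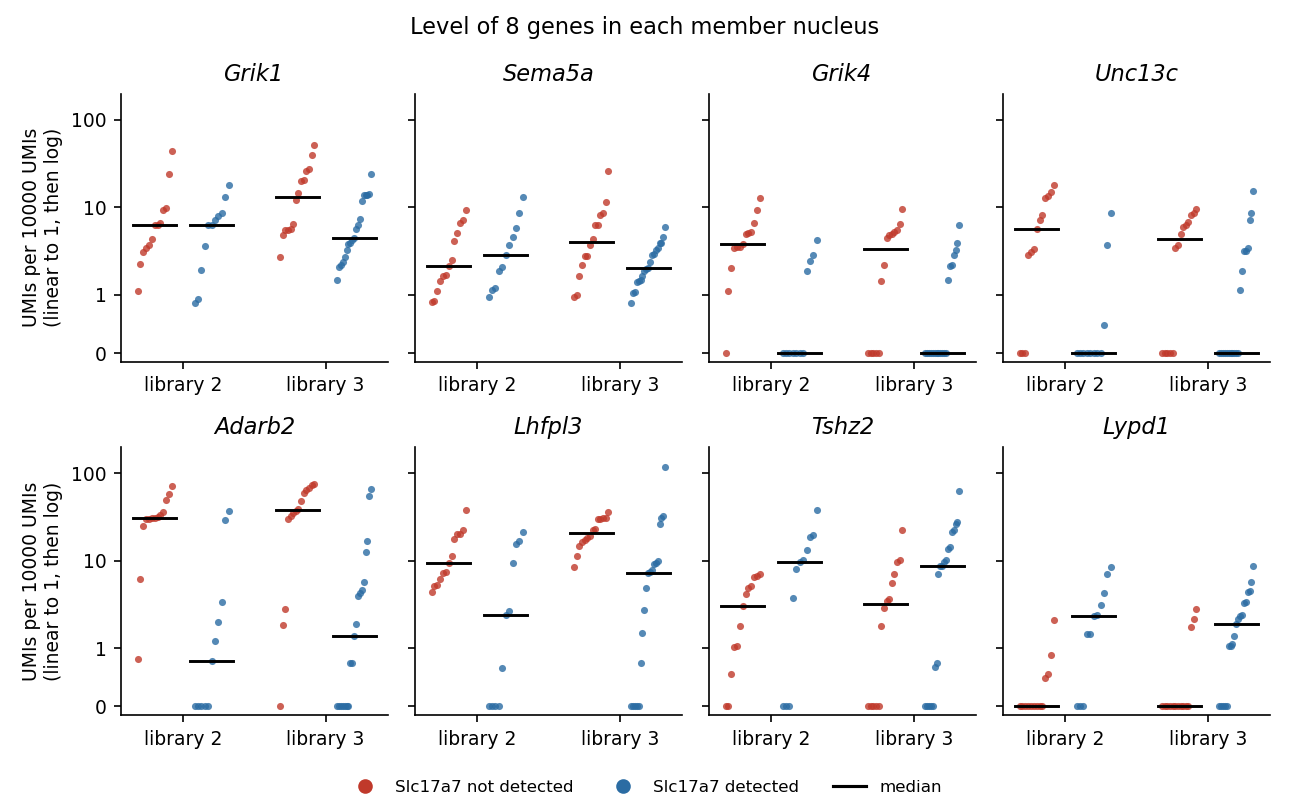
Level of 8 genes in each *Grik1*/*Sema5a* nucleus of libraries 2 and 3 (y axis, UMIs per 10000 UMIs of the nucleus, linear up to 1 and logarithmic above), with nuclei lacking *Slc17a7* in red, nuclei with it in blue and the median as a black bar. *Adarb2* was detected in 13 of 13 and 13 of 14 nuclei without *Slc17a7* and in 6 of 11 and 12 of 19 with it, whereas *Lypd1* was detected in 4 of 13 and 3 of 14 without it and in 8 of 11 and 14 of 19 with it.

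Markers of other cell types were examined as whole lists. The summed GABAergic markers were at 54.1 and 19.4 CPM in the *Grik1*/*Sema5a* nuclei, against 5.69 and 21.2 in matched nuclei and 1151 and 951 in GABAergic nuclei. The vesicular GABA transporter *Slc32a1* and the transcription factors *Dlx1* and *Dlx2* had no UMI. *Dlx6os1*, a long non-coding RNA of GABAergic neurons, had a UMI in 2 of 24 nuclei of library 2 and none in library 3. The oligodendrocyte list summed to 416 and 385 CPM against 114 and 274 in matched and 18077 and 16108 in oligodendrocyte nuclei, and *Mbp* led it with 154 and 113 CPM. The list of oligodendrocyte precursors summed to 1128 and 1422 CPM, against 283 and 456 in matched nuclei, and *Lhfpl3* alone gave 1111 and 1400 of it against 255 and 432. Of its other 5 genes, *Pdgfra* and *Vcan* held 1 to 4 UMIs in each library, *Cspg4* and *Olig2* 2 and 1 in library 3 and none in library 2, and *Olig1* none in either. Astrocyte markers were at 91.1 and 155 CPM against 185 and 181 in matched nuclei, and microglial markers at 34.2 and 100.2 against 17.1 and 45.6. Vascular markers were at 19.9 and 16.2 CPM against 35.6 and 14.7. Ependymal markers were at 57.0 and 19.4 CPM against 25.6 and 8.15, led by *Dnah12* at 45.6 and 12.9 CPM, with no UMI of *Foxj1*, *Tmem212* or *Rarres2* in the set. The part of these transcripts in the results below was not tested beyond leaving out nuclei. Left out were nuclei rich in oligodendrocyte, precursor, microglial, vascular and ependymal markers (*Lhfpl3* not counted), below called glial or vascular markers. Separately, nuclei with *Slc32a1* or *Dlx6os1* were left out of the depth-matched comparison. Glial or vascular markers made up 1.21% of the 3792 UMIs of a nucleus in library 2 and 2.08% of the 2544 UMIs of another in library 3. Neither nucleus held a UMI of the neuronal genes *Rbfox3*, *Snap25* or *Camk2a*, and both stayed in the main set. The glutamatergic list summed to 723 and 785 CPM against 1241 and 960, with *Camk2a* at 530 and 540 against 985 and 680. Several transcripts of the set were at high levels in GABAergic nuclei too, *Grik1* at 1010 and 783 CPM, *Alk* at 585 and 528, and *Ptchd4* at 257 and 263, whereas *Nova1* was at 92.7 and 112 CPM there. The pallial factors *Tbr1* and *Neurod6* had no UMI in library 3.

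Against the depth-matched glutamatergic nuclei, 1 gene passed the test. *Adarb2* (chr13:8202866–8768747) was at 1862 and 2175 CPM against 319 and 396, so both libraries lay far above their matched nuclei. The log2 fold change was 2.43 ± 0.14 (SE), with an adjusted p of 0.0146 from edgeR's quasi-likelihood test with Benjamini-Hochberg adjustment over 5780 genes. This 1 call is 0.0173% of the genes tested. At an unadjusted p below 0.05 there were 775 genes (13.4%), and DESeq2 on the same sums called 15 genes, 14 of them higher. *Adarb2* had a UMI in 19 of 24 nuclei (79.2%, 57.8–92.9) and 25 of 33 (75.8%, 57.7–88.9), against 43.8% and 37.9% of matched and 20.8% and 28.8% of oligodendrocyte nuclei. The most loaded nucleus held 11.8% and 15.5% of its UMIs, so the level did not come from a single nucleus. GABAergic nuclei held it at 4185 and 3998 CPM, although *Slc32a1*, *Dlx1* and *Dlx2* had no UMI in the *Grik1*/*Sema5a* nuclei.

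The *Adarb2* difference moved with *Slc17a7*. Restricted to nuclei with *Slc17a7* in both groups, its log2 fold change was 1.30 with an adjusted p of 0.446, and restricted to nuclei without it 1.60 with an adjusted p of 0.204 (edgeR). Base nuclei outside the set and without *Slc17a7* held *Adarb2* at 1416 and 845 CPM. When nuclei were matched on both UMIs and detection of *Slc17a7*, it was 1.35 with an adjusted p of 0.0211.

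With predicted genes left out (names such as Gm and a number), the next smallest p-values belonged to 9 genes that did not pass in edgeR. *Lhfpl3* (chr5:22746059–23275597), a tetraspan membrane protein gene used above as a precursor-cell marker, was at 1111 and 1400 CPM against 255 and 432, a log2 difference of 1.83 ± 0.17 with an adjusted p of 0.0649 in edgeR and 2.19e-05 in DESeq2. It was present in 20 of 24 and 28 of 33 nuclei. *Unc13c* was at 384 and 343 CPM against 89.6 and 86.4, and *Nova1* at 293 and 236 against 64.0 and 52.2. Base nuclei outside the set and without *Slc17a7* held *Unc13c* at 564 and 283 CPM, *Nova1* at 291 and 148, *Lhfpl3* at 1007 and 1048, and *Grik4* at 215 and 196. The patched-domain gene *Ptchd4* was at 142 and 204 CPM against 19.9 and 26.1, and *Vwa5b1* at 125 and 67.9 against 4.27 and 8.15. The receptor tyrosine kinase gene *Alk* was at 165 and 165 CPM against 12.8 and 32.6, but among nuclei without *Slc17a7* its log2 difference was −0.39. *Zbtb7c*, a zinc-finger gene, was at 259 and 220 CPM against 54.1 and 70.1. On the lower side, the neuronal differentiation factor *Nfib* was at 114 and 152 CPM against 403 and 445, and the adhesion molecule *Lsamp* at 8438 and 13189 against 17343 and 20856. For each of these 9 genes both libraries lay on the same side of their matched nuclei, and the adjusted p-values ran from 0.0649 to 0.112 in edgeR. In DESeq2, 8 of them passed and *Lsamp*, with an adjusted p of 0.149, did not.

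**Figure D3:**
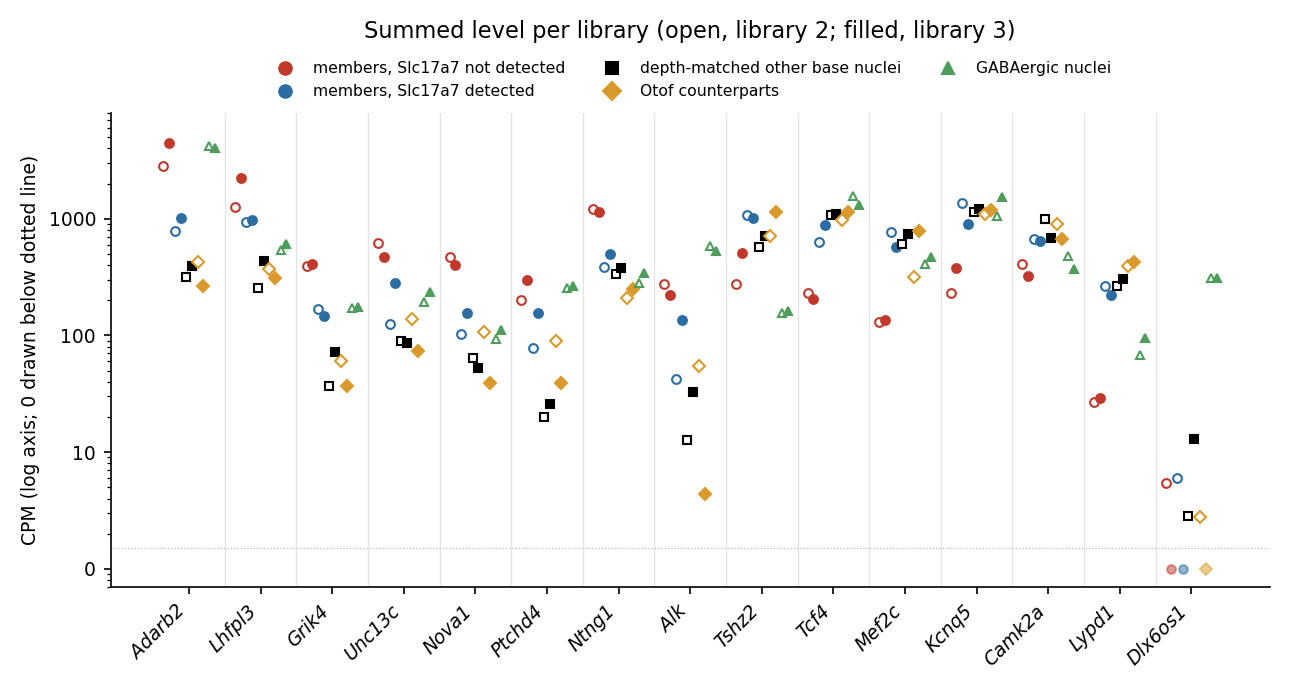
CPM (y axis, logarithmic, values of 0 drawn below the dotted line) of 15 genes in the *Grik1*/*Sema5a* nuclei (members) without and with *Slc17a7*, depth-matched base nuclei, *Otof* counterparts (nuclei that also hold *Otof*) and GABAergic nuclei, with open symbols for library 2 and filled symbols for library 3. *Adarb2* stood at 2838 and 4483 CPM in members without *Slc17a7*, near the 4185 and 3998 of GABAergic nuclei, and at 319 and 396 in matched nuclei.

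Among glutamate receptors, 6 of 7 listed kainate genes were tested and none passed in edgeR. *Grik4* was at 285 and 233 CPM against 37.0 and 71.7, a log2 difference of 2.21 ± 0.32 that did not pass in edgeR (adjusted p = 0.147) and passed in DESeq2 (adjusted p = 0.00733). No gene of the AMPA (11 of 13 tested), NMDA and delta (6 of 9) or metabotropic (5 of 7) lists passed in edgeR or DESeq2. Their median log2 differences were −0.24, −0.31 and −0.76, and that of the kainate list −0.32, against 0.00 over all genes tested. At an unadjusted p below 0.05 the 4 lists held 3 kainate, 4 AMPA, 3 NMDA and delta, and 3 metabotropic genes, where 13.4% of all genes tested did so.

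In edgeR no gene of the other lists passed, whereas DESeq2 called *Unc13c* of the release list and *Nfib* of the transcription factor list. The release machinery had 26 of 32 genes tested and 9 at an unadjusted p below 0.05 (all genes 13.4%), with a median of −0.20. In it *Unc13c* and *Rims3*, a presynaptic active-zone gene, were at least doubled in both libraries. Of the semaphorins and their receptors 14 of 29 were tested with a median of −0.27, and of other guidance genes 29 of 36 with a median of −0.25. *Sema3e*, a secreted semaphorin, and *Nrp1*, a semaphorin co-receptor, were at most halved in both libraries. The transcription factor list had the largest shift among these lists that had at least 10 tested genes, a median of −0.57 over 29 of 47 genes with 16 at an unadjusted p below 0.05 (all genes 13.4%), and *Lmo4*, *Nfib*, *Nfix* and *Bcl11b* were at most halved in both libraries while *Meis1*, at 37.0 and 84.0 CPM against 14.2 and 22.8, was at least doubled. In library 2 *Meis1* came from 2 nuclei, 1 with 69.2% of its UMIs, and without that nucleus it was at 12.2 CPM, below the matched nuclei. Potassium channels had a median of −0.18 (34 of 41 tested), sodium, calcium and HCN channels −0.10 (20 of 26), cadherins −0.05 (20 of 22), GABA-A receptor subunits −0.02 (11 of 12) and neuromodulator receptors 0.16 (15 of 53). Over all genes tested, 126 (2.18%) were at least doubled and 60 (1.04%) at most halved in both libraries. No neuropeptide gene of 16 listed and 1 of 12 activity-regulated early genes reached the level needed for testing.

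**Figure D4:**
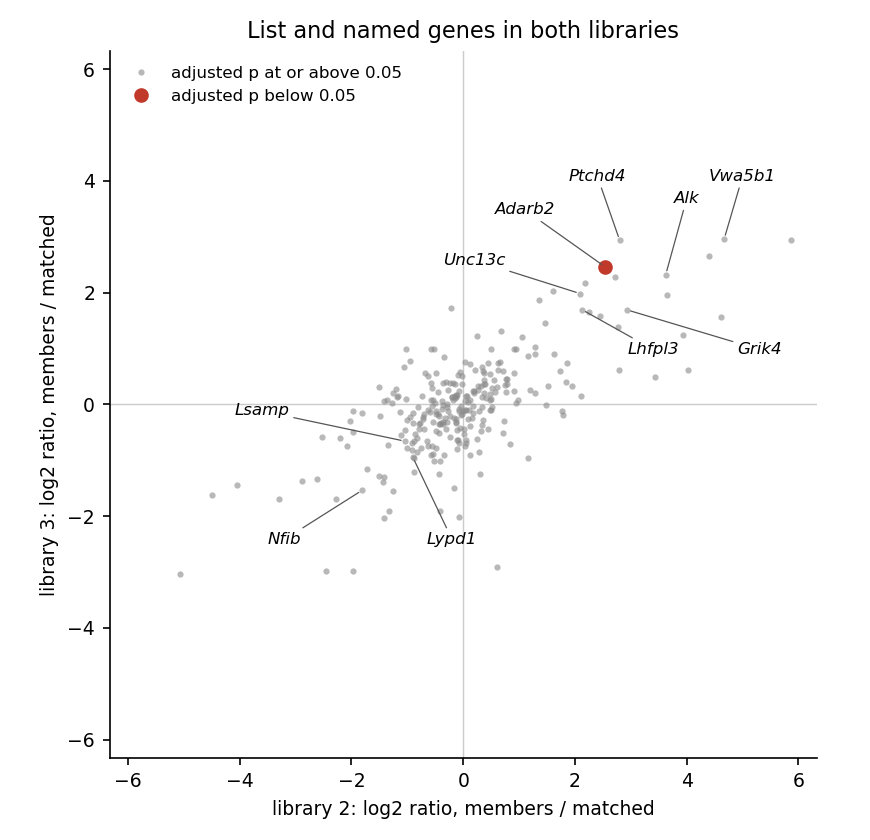
Log2 ratio of CPM between the *Grik1*/*Sema5a* nuclei (members) and their depth-matched base nuclei, with 0.5 counts added, in library 2 (x axis) and library 3 (y axis), 1 point per listed or named gene, red where edgeR's adjusted p was below 0.05. *Adarb2*, the gene that passed the test, had log2 ratios of 2.54 and 2.46.

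Genes that mark glutamatergic clusters in the study were set beside these. Among them, *Esr1* and *Pde11a* mark a cluster that the paper assigns to the posterior medial amygdala. *Lypd1* was detected in 50.0% and 51.5% of the *Grik1*/*Sema5a* nuclei against 81.2% and 63.6% of matched nuclei. The ETS-family factor *Etv1* was at 54.1 and 87.3 CPM against 218 and 124, and was found in 37.5% and 30.3% of nuclei. The neurotrophin gene *Bdnf* was at 76.9 and 45.3 CPM against 37.0 and 19.6, but 1 nucleus held 40.7% and 64.3% of its UMIs, and without it the levels were 48.5 and 16.9 CPM, the latter below the matched nuclei. *Adamts2*, a procollagen-processing protease gene, had a UMI in 37.5% and 30.3% of nuclei against 25.0% and 15.2% of matched nuclei, and in 14.9% and 24.6% of oligodendrocyte nuclei. The cadherin *Cdh13* had a UMI in 91.7% and 84.8% of nuclei against 77.1% and 80.3% of matched nuclei, and the estrogen receptor gene *Esr1* in 25.0% and 21.2% against 27.1% and 13.6%. *Pde11a*, a cyclic nucleotide phosphodiesterase, had no UMI in the 24 nuclei of library 2 and a UMI in 6.06% of nuclei of library 3. In library 2 the Clopper-Pearson interval for the share with a UMI reached 14.2%, and a floor of 3 nuclei of 24 is 12.5%. None of these genes passed in edgeR or DESeq2 against matched nuclei.

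Comparison with other marker-defined glutamatergic nuclei used the same *Grik1*/*Sema5a* nuclei against 3 groups, so the results below share 1 side and are given side by side. Nuclei with *Grik1* and *Sema5a* at the same limits but at least 2 *Otof* UMIs, here the *Otof* counterparts, numbered 64 and 29. Base nuclei with at least 2 *Rspo2* UMIs (116 and 53) and with at least 2 *Rorb* UMIs (74 and 56) formed the other groups. Each nucleus was paired with 1 nucleus of nearest depth. The pairing was close in library 2, but in library 3 the medians were 7204 against 14189 UMIs for the *Otof* counterparts (29 pairs), 6993 against 13336 for *Rspo2* nuclei and 6993 against 8344 for *Rorb* nuclei. The part of this depth gap in the results was not tested.

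Against the *Otof* counterparts, edgeR called 344 of 4820 genes (7.14%), 175 higher (3.63%) and 169 lower (3.51%) in the *Grik1*/*Sema5a* nuclei. Without matching for depth it called 0 genes, with 862 at an unadjusted p below 0.05, and the smallest adjusted p was 0.0523. That value was shared by *Adarb2*, *Grik4*, *Unc13c*, *Lhfpl3*, *Ntng1* and *Lypd1*, whose unmatched log2 differences were 2.48, 2.33, 1.71, 1.80, 1.68 and −1.52. In the matched comparison, DESeq2 gave no adjusted p to 3364 genes and called 56, and all 56 were also called by edgeR and by a joint fit over all 4 groups, 30 higher and 26 lower. *Adarb2* was at 1862 and 2181 CPM in the paired *Grik1*/*Sema5a* nuclei against 352 and 267, a log2 fold change of 2.65 ± 0.18 (edgeR adjusted p = 2.5e-10). *Grik4* was at 285 and 236 CPM against 34.3 and 37.0 (2.77 ± 0.30, edgeR adjusted p = 1.77e-06). *Unc13c* was at 384 and 348 CPM against 103 and 73.9, and *Lhfpl3* at 1111 and 1276 against 317 and 309, and both were higher in edgeR (log2 fold changes 1.99 and 1.86, adjusted p = 6.7e-06 and 2.69e-07). The libraries of the 2 groups did not overlap for any of these genes. *Grik4* and *Unc13c* were proposed as markers from these same data, so their p-values in any comparison are no separate evidence for the set.

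Adhesion and guidance genes differed in both directions from the *Otof* counterparts. Over all genes tested 3.63% were higher and 3.51% lower, against which the list counts below stand. Of 28 guidance genes tested 6 were higher and 3 lower, with *Ntng1* at 814 and 729 CPM against 192 and 248 (log2 fold change 1.74, edgeR adjusted p = 5.06e-06). Of 19 cadherins 2 were higher and 3 lower, with *Cdh11* at 288 and 226 CPM against 62.9 and 80.4 (1.75, edgeR adjusted p = 0.000144). Of 32 potassium channel genes 7 were higher, among them *Kcnh7*, and 4 were lower. Of 25 transcription factors 3 were higher and 5 lower, and *Tcf4*, a helix-loop-helix factor, was at 421 and 635 CPM against 1109 and 1139. *Lypd1* was at 140 and 162 CPM against 446 and 422, a log2 fold change of −1.59 ± 0.22 (edgeR adjusted p = 3.44e-05). The serotonin receptor gene *Htr4* was at 103 and 67.5 CPM against 8.58 and 17.4, and the muscarinic receptor gene *Chrm3* at 393 and 338 against 48.6 and 128, both called by edgeR. DESeq2 gave no adjusted p for *Htr4* and 0.103 for *Chrm3*. In *Chrm3*, 1 nucleus of library 2 held 43.5% of the UMIs. *Grin2a*, an NMDA receptor subunit, and *Grm5*, a metabotropic receptor, fell by 0.79 and 0.73 on the log2 scale in edgeR, DESeq2 and the joint fit. With only nuclei that held *Slc17a7* in both groups, 72 genes were called, and these included 27 of the 56, *Adarb2*, *Grik4*, *Unc13c*, *Lhfpl3*, *Ntng1*, *Cdh11* and *Kcnh7* among them.

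Among the named genes, those with the largest log2 fold changes above the *Otof* counterparts rested on few nuclei. *Prr5l* was at 79.7 and 74.3 CPM in the paired nuclei and had no UMI in the paired *Otof* counterparts. Over all 24 and 33 *Grik1*/*Sema5a* nuclei, paired or not, it was found in only 4 of each library, with 53.6% and 51.9% of its UMIs in 1 nucleus. *St18*, *D7Ertd443e* and *Lrmda* were likewise found in 4 to 9 nuclei per library. *Prr5l*, *St18* and *D7Ertd443e* were at 2254 and 3504, 4721 and 5103, and 964 and 1292 CPM in oligodendrocyte nuclei. These 3 no longer reached the level needed for testing once nuclei with at least 0.2% of glial or vascular marker UMIs were left out. *Lrmda* was still tested and called, and so were all 56 genes called in the 3 fits. The filter removed 3 and 1 nuclei from the whole set. In this comparison it cut the pairs of library 2 from 24 to 21. Library 3 stayed at 29 pairs, with the same 296128 UMIs in the *Grik1*/*Sema5a* nuclei. On the lower side, the carbonic anhydrase gene *Car12* was at 2.85 and 3.38 CPM against 54.3 and 50.0, and the carboxypeptidase gene *Cpa6* at 2.85 and 23.6 against 149 and 102.

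Against *Rspo2* nuclei, edgeR called 585 of 4828 genes (12.1%), 249 higher (5.16%) and 336 lower (6.96%). DESeq2, which gave no adjusted p to 3276, called 87, all of them also called by edgeR and the joint fit, 32 higher and 55 lower. *Adarb2* was at 1862 and 2175 CPM against 160 and 421 (log2 fold change 2.79 ± 0.19, edgeR adjusted p = 3.32e-44), and *Grik4*, *Unc13c*, *Lhfpl3* and *Nova1* were higher by 2.16, 2.53, 2.39 and 2.32. The zinc-finger genes *Zbtb20*, at 231 and 501 CPM against 57.0 and 84.2, and *Zbtb7c*, at 259 and 220 against 22.8 and 17.3, were higher as well. So was the mineralocorticoid receptor gene *Nr3c2*, at 493 and 504 CPM against 148 and 220.

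Glutamate receptor genes that passed were mostly lower than in *Rspo2* nuclei, where 5.16% of all genes tested were higher and 6.96% lower. Of 5 metabotropic genes 4 were lower and none higher, and *Grm8*, a presynaptic autoreceptor of group III, was at 222 and 423 CPM against 1297 and 1185. Of 10 AMPA-list genes 4 were lower and none higher, with the auxiliary subunit *Cnih3* at 65.5 and 55.0 CPM against 208 and 184. The kainate list had 2 higher and 2 lower of 6, and the lower *Grik3* was at 39.9 and 97.0 CPM against 294 and 194. Of 29 transcription factors 5 were higher and 12 lower, and of 25 release genes 3 and 9. The cadherin *Cdh9* was at 239 and 84.0 CPM against 704 and 743, with 70.2% of its library 2 UMIs in 1 nucleus. Also lower were the semaphorin *Sema3e*, at 11.4 and 16.2 CPM against 128 and 149, and *Frem1*, an extracellular matrix gene with no UMI in library 2 and 3.23 CPM in library 3 against 131 and 99.3. The serotonin receptor gene *Htr1f* was at 242 and 162 CPM against 536 and 551. *Kctd8*, which encodes an auxiliary protein of GABA-B receptors, was at 290 and 100.2 CPM against 2.85 and 4.32, in 9 and 10 nuclei, of which 1 held 54.9% of its UMIs in library 2. *Qrfpr*, a neuropeptide receptor gene, was at 85.4 and 67.9 CPM against 2.85 and no UMI, and 1 nucleus in each library held 80.0% and 57.1% of it. *Btbd11* was at 96.8 and 97.0 CPM against 5.70 and 2.16, in 11 nuclei of each library. *Ankrd33b* was at 19.9 and 42.0 CPM against 299 and 192.

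Against *Rorb* nuclei, edgeR called 37 of 4767 genes (0.776%), 16 higher (0.336%) and 21 lower (0.441%), with 732 at an unadjusted p below 0.05. DESeq2, which gave no adjusted p to 2126, called 42 genes, and 23 were called by edgeR, DESeq2 and the joint fit, 10 higher and 13 lower. *Alk* was at 165 and 165 CPM against 8.50 and 26.1 (log2 fold change 3.14 ± 0.41), and *Grik4* at 285 and 233 against 42.5 and 49.4 (2.38 ± 0.27). *Adarb2* was at 1862 and 2175 CPM against 666 and 348 (1.94 ± 0.27), and *Lhfpl3* and *Cdh13* were higher by 1.73 and 1.21. *Satb1*, a chromatin organiser, was at 14.2 and 38.8 CPM against 178 and 148, *Grm8* at 222 and 423 against 1059 and 1269, and *Mef2c* at 430 and 423 against 878 and 1106. *Tcf4* fell by 1.44 on the log2 scale. For each gene named in this comparison as higher or lower the adjusted p in edgeR was 0.0444. The prolactin receptor gene *Prlr* was at 96.8 and 58.2 CPM against 2.83 and 5.81, in 7 and 8 nuclei, and *Klhl13* at 74.0 and 55.0 against 5.66 and 2.90, in 14 and 11 nuclei. Lower was the sodium channel gene *Scn7a*, at 2.85 and 3.23 CPM against 79.3 and 40.7. *Prr5l* and *St18* were called here as well, and were again too low to be tested once nuclei with glial or vascular markers were left out. *Unc13c* did not pass here (1.62, edgeR adjusted p = 0.086). In the joint fit, where the groups share 1 estimate of spread, 290, 442 and 296 genes were called against the *Otof*, *Rspo2* and *Rorb* groups, whereas the separate fits each estimated their own.

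**Figure D5:**
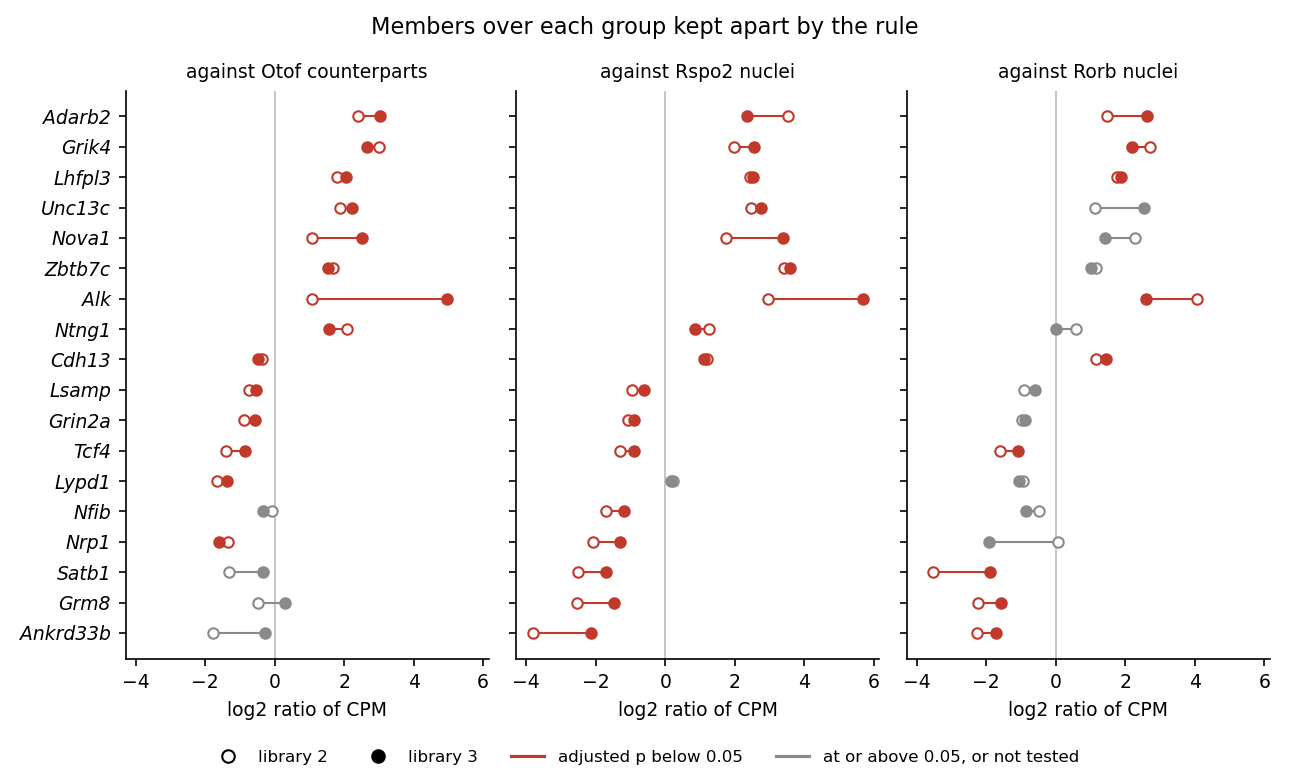
Log2 ratio of CPM (axis in log2 units, 0.5 counts added) of 18 genes between the *Grik1*/*Sema5a* nuclei and the *Otof* counterparts, *Rspo2* nuclei and *Rorb* nuclei, with an open point for library 2 and a filled point for library 3, red where edgeR's adjusted p was below 0.05 and grey where it was not or the gene was not tested. *Adarb2*, *Grik4* and *Lhfpl3* were red in all 3 comparisons and *Unc13c* in the first 2. *Grik4* and *Unc13c* were proposed as markers from these same data.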

How the data were processed

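Raw UMI counts per gene and barcode were deposited by the authors as filtered matrices of 32285 genes, made with Cell Ranger 7.0.1 on mm10 per the labels, and whether intronic reads were counted is not given in the sources used here. Gene positions came from the GENCODE annotation of GRCm38. The selected nuclei, gene lists and comparisons were chosen with earlier results of these data known. No doublet caller was run. Counts were summed per library and group, and each summed set was compared with edgeR 4.0.16 (TMM, expression filter, quasi-likelihood test, library as block) in R 4.3.3, with Benjamini-Hochberg adjustment over all genes tested. The library number is that of the same preparation on both sides, so it pairs the sums. DESeq2 1.42.0 served as the alternative, and its missing adjusted p-values were left missing. Each of the 4 separate fits had 1 residual degree of freedom (2 without the block, 3 in the joint fit over all 4 groups). The spread was therefore largely borrowed across genes. The median prior degrees of freedom, which weight the borrowed spread, were 4.95 for matched, 24.9 for *Otof*, 5.5 for *Rorb* and infinite for *Rspo2* nuclei. In the *Rspo2* fit the median gene's own spread between libraries thus had no weight. Counts of genes called by the separate fits are therefore not directly comparable. P-values rest on spread between 2 libraries, which may be technical. Fits were tested on simulated counts. The simulated spread was fixed at 1 value for all genes, without a library effect. It was larger than the common biological coefficient of variation in the 4 main fits, 0.130 to 0.145. The recovered shares below therefore describe that setting and not the power of these tests. Changes were put into 200 genes, not all of which were tested. In the depth-matched comparison 49 of 98 tested 4-fold changes (50.0%) and 3 of 93 tested 2-fold changes (3.23%) were recovered. Against *Otof*, *Rspo2* and *Rorb* nuclei 55.2%, 39% and 22.3% of 4-fold changes were recovered, and 2.22%, 1.06% and 0% of 2-fold changes. Named genes were the 10 smallest p-values where fewer than 5 genes passed, the 5 largest log2 fold changes in each direction at 20 CPM or more in the other comparisons (of which some are named here), and passing list members. Predicted genes were left out of these rankings. Others are named where their values were seen first, and this was the case for the genes called by all 3 fits. Some genes are not reported here.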

Additional observations from a re-analysis of the deposited data

How the results depend on the processing

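Against depth-matched nuclei, the count of genes called (1) was 15 with DESeq2, 0 without the expression filter, 496 without matching, 34 with 1 matched nucleus each, 91 after thinning, 54 with stricter *Grik1* and *Sema5a* limits, 23 with *Otof*, *Rspo2* and *Rorb* at 0, 342 without the deepest nuclei, 146 when matched on *Malat1* too, and 1 under the hemoglobin and mitochondrial limits. Among alternatives chosen after seeing the data it was 4 when matched on *Slc17a7* detection, 2 without and 0 with *Slc17a7* in both groups, 1 without nuclei with glial or vascular markers and 16 without nuclei with *Slc32a1* or *Dlx6os1*. Without the library block, which pairs the sums, the counts were 47, 160, 313 and 177 for matched, *Otof*, *Rspo2* and *Rorb* nuclei. The count was 56 with DESeq2, 0 without matching and 72 among nuclei with *Slc17a7* for the *Otof* counterparts. It was 87 with DESeq2 for *Rspo2* nuclei. For *Rorb* nuclei it was 371 without the filter, 408 without matching, 221 without nuclei with glial markers and 296 in the joint fit. The cause of these moves was not tested. *Adarb2* kept its direction in 17 alternatives (log2 fold change 1.30 to 3.08) and passed in 14, with adjusted p from 1.32e-25 to 0.879. *Alk* reversed to −0.39 among nuclei without *Slc17a7*. The share of *Grik1*/*Sema5a* nuclei was 1.22% under a stricter base and 2.93 to 6.78 with either library left out. The mean share with *Unc13c* moved from 52.8% to 48.5% after thinning. A stricter base (2 and 3 nuclei), library 1 (1 nucleus) and single libraries (no residual degrees of freedom) could not be fitted.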
